A study of Mus musculus with 12 samples.

Results

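The dissociation and heat shock genes are 38 listed genes of 2 stress programs that cells can switch on within a short time of being disturbed, out of 20626 genes with a unique molecular identifier (UMI) in the 4 mRNA libraries. They were followed in T cells that had been sorted as live TCRβ-positive cells from the pancreatic islets of female non-obese diabetic (NOD) mice, 12 weeks of age and labelled pre-diabetic. All cells share this strain, sex, age and disease state, and no treatment or second genotype was part of the design. Each of the 4 biological replicates gave 5′ single-cell mRNA, T cell receptor and antibody libraries, with antibodies to CD4, CD62L and CD11a and a biotinylated antibody to CD8b. Whether 1 mouse or a pool stands behind a replicate is not given in the labels. The p-values below therefore measure how far differences between sums of the same library vary over these libraries.

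Immediate early genes are transcribed from factors already present in the cell, so their mRNAs appear before any new protein is made. They include the AP-1 factors of the Fos, Jun and ATF families, RNA-binding proteins and phosphatases that end the response, and the inhibitors that NF-kB induces against itself. The same genes rise after T cell receptor engagement and after enzymatic digestion or sorting of a tissue. Heat shock genes are driven by heat shock factor 1, which binds inverted repeats of the pentamer NGAAN, and their products fold proteins together with chaperones that are made all the time in the cytosol, mitochondria and endoplasmic reticulum.

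The members were grouped as 7 AP-1 and ATF factors, 15 other immediate early genes, 3 NF-kB feedback genes, 8 inducible heat shock genes and 5 constitutive or organelle chaperones. All 38 passed the filter on low counts in the fit over subsets. RefSeq (GRCm38.p6) holds promoter sequences for 32 of them, and the windows that follow show 100 bases from the stretch upstream of the start of genes whose levels are compared below, on the strand of the gene. Capitals mark matches to 2 inward- or outward-facing heat shock units (GAANNTTC or TTCNNGAA) in the first 5 and to the cAMP response element (TGACGTCA) in the last 2.
Hspa1a: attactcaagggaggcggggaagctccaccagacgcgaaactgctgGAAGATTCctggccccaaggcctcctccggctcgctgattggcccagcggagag
Hspa1b: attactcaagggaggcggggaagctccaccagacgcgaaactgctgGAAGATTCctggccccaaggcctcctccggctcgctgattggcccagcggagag
Hspd1: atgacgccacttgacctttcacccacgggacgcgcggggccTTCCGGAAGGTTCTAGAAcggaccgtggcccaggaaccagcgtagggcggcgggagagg
Dnajb4: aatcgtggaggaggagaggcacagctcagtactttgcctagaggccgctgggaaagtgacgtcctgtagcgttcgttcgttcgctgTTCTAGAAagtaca
Jun: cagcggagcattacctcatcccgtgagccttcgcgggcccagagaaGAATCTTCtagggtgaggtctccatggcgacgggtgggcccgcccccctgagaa
Ppp1r15a: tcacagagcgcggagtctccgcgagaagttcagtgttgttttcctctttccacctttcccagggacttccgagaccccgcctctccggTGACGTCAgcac
Dusp1: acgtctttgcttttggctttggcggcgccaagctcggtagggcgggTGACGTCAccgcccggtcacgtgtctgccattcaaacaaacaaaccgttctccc
The windows lie at chr17:34972207-34972306 (Hspa1a), chr17:34959289-34959388 (Hspa1b), chr1:55088018-55088117 (Hspd1), chr3:152193846-152193945 (Dnajb4), chr4:95052297-95052396 (Jun), chr7:45526269-45526368 (Ppp1r15a) and chr17:26508562-26508661 (Dusp1), all on the minus strand. Searched over both strands of the 250 bases upstream, GAANNTTC was found in 7 members and in 7.73% of 27025 genes, and TTCNNGAA in 4 members and 8.11% of genes. The 3-unit form, GAANNTTC with NNGAA after it, was found in Hspd1 and Hspe1 and in 0.514% of genes, and each such match also holds a match to both shorter forms. The cAMP response element was found in Dusp1, Btg2 and Ppp1r15a and in 1.77% of genes, and the AP-1 site TGANTCA in 4 members and 7.82%. Hspd1 and Hspe1 are divergent neighbours and can share their stretch. A match describes these letters only. The upstream bases of Hspa1a and Hspa1b, near-identical genes for inducible HSP70, were the same at 98.8% of 250 positions. The bases compared lie upstream of the start and not in the mRNA, so how reads divide between these 2 genes stays uncertain. The ratio of Hspa1a to Hspa1b UMIs in CD62L-low CD4 conventional cells was 4.31, 5.98, 2.11 and 8.03 in replicates 1 to 4. The other 5 subsets gave similar ratios within each library, between 1.88 and 2.52 in replicate 3 and between 7.25 and 8.65 in replicate 4.

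Cells were assigned from antibody counts and a few transcripts. CD8 cells had a CD4 antibody count under 20 and at least 2 UMIs of Cd8a and Cd8b1, CD4 conventional cells a count of at least 40 with no Cd8a, Cd8b1 or Foxp3 UMI, and Treg the same with at least 1 Foxp3 UMI. Each was split into CD62L-low (antibody count at most 3) and CD62L-high (at least 10). CD62L is a homing receptor that lets T cells enter lymph nodes and is lost from the surface on activation. Subsets held 34 to 1812 cells per library, with 34 to 75 in CD62L-high Treg. Median depth was 3027 to 5347.5 UMIs per cell. With CD62L low, cells with a Foxp3 UMI were read more deeply, with a median of 4754 UMIs in Treg against 3616 in CD4 conventional cells (means over 4 libraries). With CD62L high these medians were 3650.2 and 3540.5. CD4 conventional cells may include Treg without a Foxp3 UMI, with the Treg gene Ikzf2 at 233 ± 25.9 counts per 1000000 UMIs (CPM) against 805 ± 76.6 in CD62L-low Treg. Ikzf2 was also at 187 ± 78.4 CPM in CD62L-low CD8 cells, so such a level does not single out Treg.

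Libraries shared 36 to 102 cell barcodes in each pair. In CD62L-low CD8 cells, 35.5% of barcodes in replicate 3 and 21.5% in replicate 4 had a CD11a antibody count under 20, against 3.18% and 3.68% in replicates 1 and 2. The 6 endocrine markers summed to 623 CPM in those cells of replicate 3 and to between 3.7 and 16.8 in the other 3 libraries. Leaving out low-CD11a cells kept 242 of 245 member calls, and leaving out barcodes with islet or acinar RNA, an alternative added after seeing the data, kept 224.

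Immediate early transcripts were on average most abundant in Treg and least in CD8 cells. The 25 immediate early and NF-kB members together took 7335, 8119.5, 6153 and 7337 CPM in CD62L-low Treg of replicates 1 to 4. In CD62L-low CD4 conventional cells they took 6027, 6272, 5546 and 6866, and in CD62L-low CD8 cells 4626, 4442, 3322 and 4015. With CD62L low, the order within every library was Treg, CD4 conventional, CD8, although the ranges of the first 2 overlap across libraries and the CD8 range lies below both. The CD62L-high subsets averaged 6487 ± 643 in Treg, 5938 ± 696 in CD4 conventional and 4556 ± 730 in CD8 cells (SD, n = 4), and their ranges overlap those of the CD62L-low cells. In replicate 4 CD62L-high Treg stood at 6017, below CD62L-high CD4 conventional cells at 6052. The range of CD62L-high CD4 conventional cells overlaps those of both other lineages. Fewer responding cells and less RNA per responding cell cannot be told apart in these sums, and sums over the members carry no test.

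The 8 inducible heat shock genes had another order. They summed to 5177 ± 761 CPM in CD62L-low CD4 conventional cells, 4202 ± 971 in CD62L-low Treg and 3245 ± 375 in CD62L-low CD8 cells. The corresponding CD62L-high levels were 5688 ± 1510.4, 5784 ± 2557 and 3497 ± 792. The Treg value there rests on replicate 2, which stood at 9614 from 34 cells, while the other 3 libraries lay between 4308 and 4663. Both means were lowest in CD8 cells, and Treg had the highest mean of the immediate early genes but not of the heat shock genes when CD62L was low. The 5 constitutive and organelle chaperones summed to 7769.9 ± 698 in CD62L-low CD8 and 6906 ± 498 in CD62L-low CD4 conventional cells, with overlapping ranges.

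**Figure D1:**
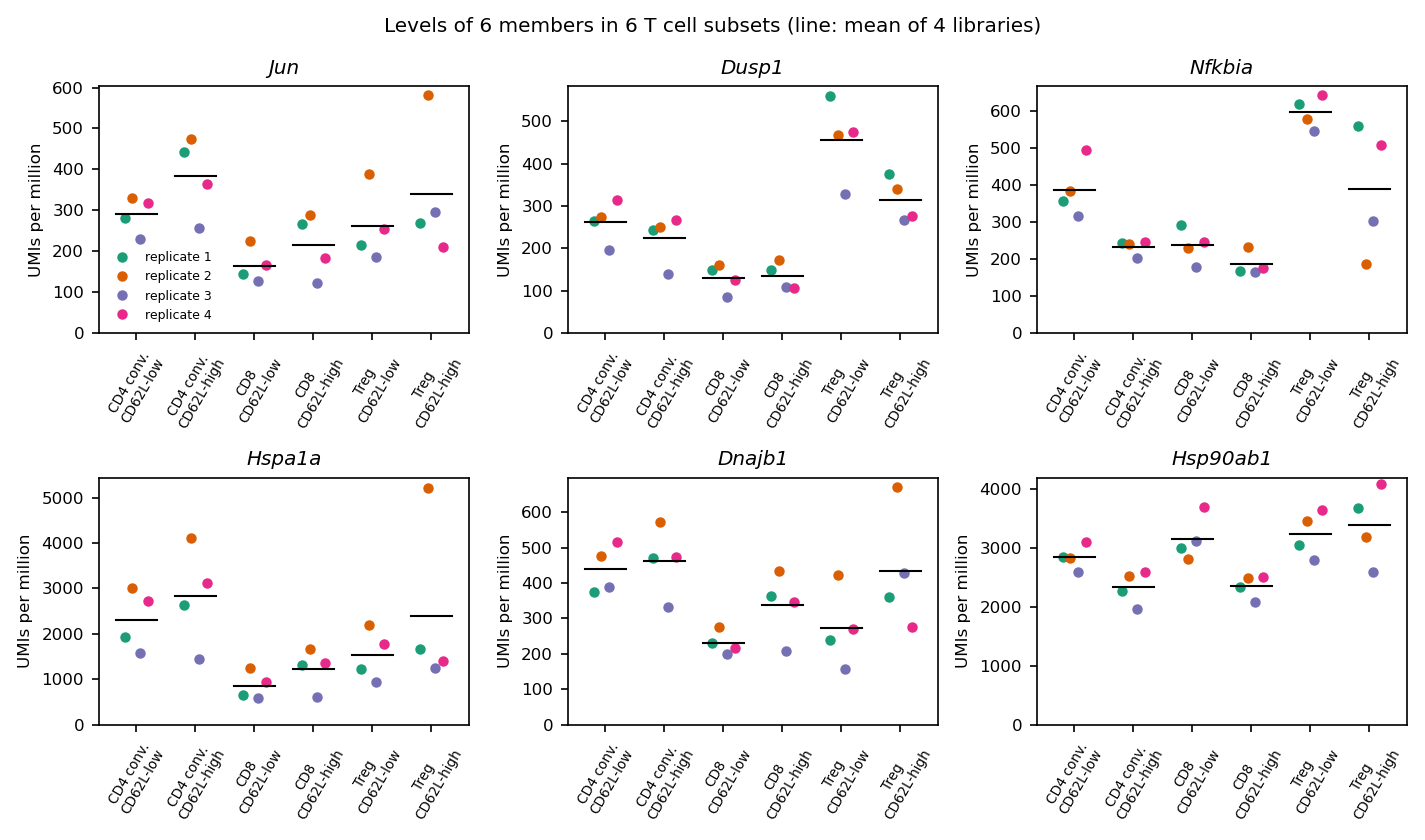
CPM (vertical axis) of 6 members in the 6 subsets, with 1 point per library and a line at the mean of 4. Hspa1a in CD62L-low CD8 cells lies between 593 and 1240.3, below all 4 libraries of CD62L-low CD4 conventional cells, and Dusp1 is highest in CD62L-low Treg.

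The programs were unevenly spread over the cells of a subset. The immediate early score of a cell was the share of its UMIs from the 25 genes, and its median in CD62L-low CD4 conventional cells was 44.0 ± 1.73 per 10000 UMIs (SD over 4 libraries), while the 90th percentile was 154 ± 13.9. A score of at least 100 per 10000 was reached by 19.8% ± 2.64 of these cells, by 9.59% ± 3.54 of CD62L-low CD8 cells and by 31.6% ± 6.11 of CD62L-low Treg. The medians differed in the same order, at 33.7 ± 2.36 in CD62L-low CD8 cells and 63.0 ± 6.56 in CD62L-low Treg. For the 8 heat shock genes the same threshold was reached by 18.1% ± 2.69, 6.29% ± 1.68 and 15.1% ± 3.89. The distributions run on without a gap at this threshold, and 11.5% of CD62L-low CD4 conventional cells lay between 80 and 125 for the first score and 6.98% for the second. With each cell thinned to 2000 UMIs, leaving out 783, 480 and 53 shallower cells of the CD62L-low CD4 conventional, CD8 and Treg subsets, the immediate early shares were 20.3% ± 3.43, 11.0% ± 2.67 and 33.0% ± 6.17.

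**Figure D2:**
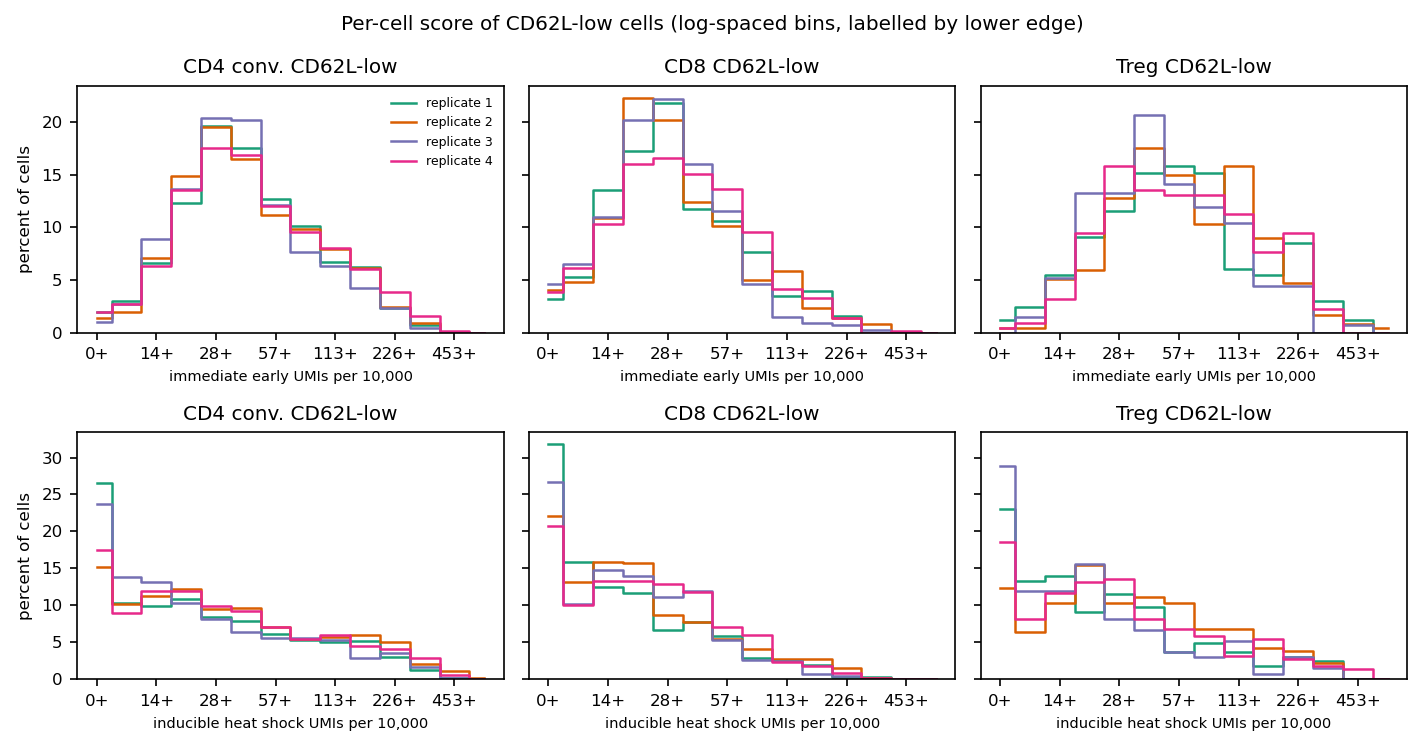
Percent of CD62L-low cells (vertical axis) by the UMIs per 10000 that came from the 25 immediate early genes (upper row) or the 8 inducible heat shock genes (lower row), 1 line per library, with bins of equal width on a log scale after the first. At or above 100 for the immediate early score lie 9.59% of CD8 cells, 19.8% of CD4 conventional cells and 31.6% of Treg on average.

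Cells with much of 1 program often had much of the other. Of CD62L-low CD4 conventional cells past 100 for the immediate early score, 63.3% ± 1.81 were also past 100 for the heat shock score, against 6.91% ± 1.9 of the cells below it. In CD62L-low Treg these shares were 37.1% ± 5.07 and 4.79% ± 1.55, and the 4 Treg libraries (34.4% to 44.7%) lay below the 4 CD4 conventional libraries (61.7% to 65.8%), a difference that was not tested. The rank correlation of the scores over cells was 0.51 to 0.59 in CD62L-low CD4 conventional cells, 0.37 to 0.51 in CD62L-low CD8 cells and 0.25 to 0.40 in CD62L-low Treg, over the cells of each library. These are descriptions, since both scores share the depth of the cell. The immediate early score was correlated at 0.28 to 0.31 with the share of the 5 constitutive chaperones and at -0.13 to -0.06 with UMIs per cell in CD62L-low CD4 conventional cells. With the mitochondrial share of UMIs it was correlated at -0.23 to -0.14 there, where the median share averaged 1.75% in cells past 100 and 2.03% in the others, and at -0.19 to -0.10 in CD62L-low Treg. The part of this share in the results was not tested.

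Pairs of 1 AP-1 and 1 heat shock gene were correlated nearly as much as pairs within a group. In CD62L-low CD4 conventional cells, the median correlation of log values, averaged over 4 libraries, was 0.202 over the 21 pairs of AP-1 and ATF factors, 0.234 over the 28 pairs of inducible heat shock genes and 0.183 over the 56 pairs that join the groups. The 40 pairs of an inducible gene with a constitutive chaperone had a median of 0.159, and the 35 pairs of an AP-1 factor with a constitutive chaperone 0.114. Single pairs varied around these medians. Hspa1a and Hspa1b reached 0.817, Jun and Hspa1a 0.531 and Fos and Hspa1a 0.451, against 0.432 for Fos and Jun. The joining pair of Atf3 and Dnajb4 was at 0.026. The counts are sparse, and no test was made.

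CD8 cells had less of most members than CD4 conventional cells when CD62L was low. 25 of 38 members were lower and 3 higher in CD8, where 22.6% of 10447 genes were called lower and 21.4% higher at an adjusted p under 0.05 (edgeR quasi-likelihood test, Benjamini-Hochberg adjustment over all genes tested, also used for every adjusted p below). The median log2 difference of the members was -0.61, against -0.02 over all genes. Jun, a core AP-1 subunit, was at 281, 330.1, 231 and 317 CPM in CD4 conventional and 144, 224, 126 and 166 in CD8 cells of replicates 1 to 4. The groups do not overlap, and the log2 difference was -0.82 ± 0.16 (SE, adjusted p = 0.00064). Dusp1, a phosphatase that switches off MAP kinases, stood at 265, 273, 197 and 314 against 149.9, 160.2, 86 and 126, again without overlap (log2 difference -1.01 ± 0.11, adjusted p = 7.9e-08). Hspa1a was lower by a similar amount in every library, at 1924, 2999, 1583 and 2722 in CD4 conventional and 642, 1240.3, 593 and 940.4 in CD8 cells (log2 difference -1.44 ± 0.21, adjusted p = 5.3e-05).

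By role, 6 of 7 AP-1 and ATF factors, 13 of 15 other immediate early genes, 2 of 3 NF-kB feedback genes and 4 of 8 inducible heat shock genes were lower in CD62L-low CD8 cells. Among them were Phlda1 (log2 difference -1.40), Rhob, a small GTPase (-1.25), Nfkbiz, an atypical IkB protein (-0.85), Zfp36l1, which promotes decay of AU-rich mRNAs (-0.77), and Bag3, an HSP70 co-chaperone (-1.35). Fosb at 0.08 and Ier2 at -0.03 were the exceptions among the AP-1 and other immediate early genes that were not called in either direction. Ier3, a regulator of cell survival under stress, was the 1 immediate early gene higher in CD8 cells, at 20.2, 52.5, 54 and 70.9 CPM against 13.9, 13.1, 19.1 and 24.4 (log2 difference 1.48 ± 0.18, adjusted p = 5e-07). The other 2 higher members were chaperones, Hspd1 of the mitochondrial matrix (0.62) and Hspa5 of the endoplasmic reticulum (0.34).

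Cycling cells, defined by at least 2 UMIs over 12 cycling genes, made up 42.1% ± 12.8 of CD62L-low CD8 and 19.6% ± 2.02 of CD62L-low CD4 conventional cells. Without them Hspd1 was at 0.11 (adjusted p = 0.38) and Hspa5 at -0.18 (adjusted p = 0.043), while Jun stayed at -0.63, Dusp1 at -1.10 and Hspa1a at -1.23 with adjusted p of 0.0053, 3.1e-07 and 3.9e-05. The NK cell markers summed to 235 ± 75.5 CPM in CD62L-low CD8 cells, and their part was not tested. In replicates 1 and 2 alone 17 members were called, 16 of them lower in CD8, and Jun at -0.72 was not among them.

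With CD62L high, 11 members were lower and 2 higher in CD8 than in CD4 conventional cells, where 5.83% of genes were lower and 7.41% higher. Jun (log2 difference -0.83), Junb (-0.62), Jund (-0.46), Dusp1 (-0.72), Ppp1r15a, which directs dephosphorylation of the initiation factor eIF2α (-0.97), Hspa1a (-1.16), Hspa1b (-1.09) and Bag3 (-1.25) were among the lower. Ier3 (2.37) and Fosl2 (0.87) were higher. Here 10.9% ± 3.75 of CD8 and 5.93% ± 1.85 of CD4 conventional cells were cycling, and without them these 2 and Hspa1a stood at 2.74, 0.82 and -1.14 (adjusted p = 1.1e-12, 0.0031 and 0.00012). Without the replicate block 5 members were called, and in replicates 1 and 2 alone 6.

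Treg had more NF-kB feedback transcripts than CD4 conventional cells. With CD62L low they also had less of several inducible heat shock genes, which were not called without cycling cells. With CD62L low, 12 members were higher and 8 lower in Treg, where 13.3% of genes were called higher and 12.9% lower. The higher ones included all 3 NF-kB feedback genes. Nfkbia, which holds NF-kB in the cytosol, was at 620.3, 579.8, 545 and 644 CPM in Treg and 358, 385, 316 and 495 in CD4 conventional cells, with no overlap (log2 difference 0.58 ± 0.17, adjusted p = 0.018). Tnfaip3, the ubiquitin-editing enzyme A20, differed by 0.67 and Nfkbiz by 0.28. Dusp1 was at 560, 467, 328 and 474 in Treg, above all 4 CD4 conventional libraries (log2 difference 0.75 ± 0.11, adjusted p = 1.4e-05), and Zfp36l1, Gadd45b, Fosl2, Junb and Jund were also higher. The remaining higher members were the chaperones Hspd1 (0.55), Hspa5 (0.37) and Hspe1 (0.26).

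The 8 members lower in CD62L-low Treg were Hspa1a (log2 difference -0.67), Hspa1b (-0.74), Dnajb1, the HSP40 partner of inducible HSP70 (-0.78), Bag3 (-0.54), Ier2 (-0.61), Ier3 (-1.52), Tob1, an antiproliferative factor of quiescent T cells (-0.49), and Rhob (-0.86). Cycling cells were 40.2% ± 6.74 of CD62L-low Treg. Without them the 4 lower heat shock genes were not called, with Hspa1a at -0.15, Hspa1b at -0.22, Dnajb1 at -0.40 and Bag3 at -0.37 (adjusted p = 0.66, 0.54, 0.19 and 0.54). The 3 NF-kB feedback genes were called, with Nfkbia at 0.96, Tnfaip3 at 0.92 and Nfkbiz at 0.84 (adjusted p = 0.00028, 0.0016 and 1.7e-08), as were Dusp1 at 1.19 and Zfp36l1 at 0.94 (adjusted p = 3.4e-08 and 4.8e-06). The count of 20 was 13 without cycling cells, 13 without replicate 1, 13 without replicate 4 and 7 without the replicate block, where the calls over all genes went from 2733 of 10447 to 1486 of 9358, 2019 of 10180, 1788 of 10488 and 2045 of 10447. Acinar and ductal markers summed to 551, 144, 73.8 and 8.18 CPM in CD62L-low Treg and 208, 175, 91.2 and 32.4 in CD4 conventional cells. Without barcodes with islet or acinar RNA, 19 members were called, among them Nfkbia at 0.59, Dusp1 at 0.76 and Hspa1a at -0.69, and 2631 of 10332 genes against 2733 of 10447. Junb, Tob1 and Rhob were then not called, at 0.39, -0.48 and -0.84 (adjusted p = 0.07, 0.073 and 0.052).

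With CD62L high, 11 members were higher and 7 lower in Treg, where 13.8% of genes were higher and 11.6% lower. Again 3 of 3 NF-kB feedback genes were higher (Tnfaip3 1.14, Nfkbia 0.64, Nfkbiz 0.55), as were Gadd45b, Zfp36l1 and Dusp1, 4 of 5 constitutive and organelle chaperones and Hsp90aa1. Fos (-0.61), Tob1 (-0.93), Dnajb4 (-0.99), Btg1 (-0.46), Btg2, Ier2 and Zfp36 were lower. CD62L-high Treg are the smallest subset, 23.8% ± 4.8 of them cycling, and 4 members were called without cycling cells, 7 without replicate 1, 9 without replicate 4 and 11 without the replicate block. The 4 were Tnfaip3, Nfkbiz, Gadd45b and Zfp36l1. Over all genes the calls went from 2657 of 10447 to 718 of 9358, 1447 of 10180, 1352 of 10488 and 2450 of 10447 under these settings. The Treg and CD8 comparisons share their CD4 conventional sums.

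Within CD4 conventional cells some immediate early genes were higher and others lower with CD62L. In CD62L-high against CD62L-low cells 10 members were higher and 8 lower, where 19.0% of genes were higher and 21.9% lower. The members' share is near this background. The higher set held Fos at 488, 413, 279 and 346 against 337, 306, 228 and 312 CPM, higher in 4 of 4 libraries with overlapping ranges (log2 difference 0.48 ± 0.16, adjusted p = 0.023), and Jun (0.52), Ppp1r15a (0.76), Tob1 (0.74), Ier2, Btg1 and Zfp36. It also held the co-chaperones Dnajb4 and Dnaja1 and the constitutive HSP70 Hspa8. Dnajb4 showed the widest rise, from 15.2, 18.9, 17.9 and 14.6 to 51.7, 49.8, 33.1 and 40.1 with no overlap (log2 difference 1.52 ± 0.13, adjusted p = 1e-10).

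The set that was lower in CD62L-high CD4 conventional cells comprised Ier3 (log2 difference -1.79), Gadd45b, a p38 activator (-1.13), Fosl2 (-1.08), Tnfaip3 (-0.68), Nfkbia (-0.60), Zfp36l1 (-0.55), Hspa5 (-0.41) and Phlda1 (-0.38). Gadd45b was at 57.4, 59.1, 41.7 and 61.4 CPM in CD62L-high and 147, 124, 88.6 and 174 in CD62L-low cells, with no overlap (adjusted p = 1.5e-07). Hspa1a and Hspa1b were not called (0.37 and 0.22). The 6 stroma and endothelium markers summed to 116 to 122 CPM in CD62L-high and 62.0 to 70.6 in CD62L-low CD4 conventional cells, nearly all of it Pecam1 (116 to 122 against 60.7 to 70.0). The other 5 (Col1a1, Col1a2, Col3a1, Sparc and Cdh5) were each at 0 to 0.813 CPM in these cells. Cycling cells were 19.6% of the CD62L-low and 5.93% of the CD62L-high cells. Without them Dnajb4 (1.21), Ppp1r15a (0.53), Ier3 (-2.07), Gadd45b (-1.06) and Fosl2 (-1.04) were among 15 members that passed, and Fos (0.33, adjusted p = 0.14), Jun (0.33, adjusted p = 0.059) and Btg1 (0.01, adjusted p = 0.89) did not.

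In CD8 cells 17 members were higher and 7 lower with CD62L high, where 22.1% of genes were higher and 22.1% lower. Inducible heat shock genes rose in 5 of 8 cases, with Hspa1a at 1307, 1663, 606 and 1361 against 642, 1240.3, 593 and 940.4 CPM (log2 difference 0.65 ± 0.21, adjusted p = 0.021, higher in 4 of 4 libraries with overlapping ranges). 3 of 5 constitutive or organelle chaperones fell, Hspd1 (-0.78), Hspa5 (-0.63) and Hsp90ab1 (-0.29), and so did 1 of the 8 inducible genes, Hsp90aa1 (-0.53). Leaving out cycling cells lowered the calls among all genes, from 4624 of 10447 to 1507 of 9358, and among the members to 9, of which 7 were higher. Hspd1 then stood at 0.30 and Hsp90ab1 at 0.19, both called in the opposite direction (adjusted p = 0.0089 and 0.0013), and Hspa1a at 0.21 (adjusted p = 0.52). Dnajb4 (0.57), Dnaja1 (0.37), Ier5 (0.29) and Ier3 (-0.92) were called either way. The same markers summed to 59.9 to 74.8 CPM in CD62L-high and 15.5 to 42.1 in CD62L-low CD8 cells, again mostly Pecam1 (57.7 to 74.8 and 14.3 to 41.8), and the other 5 were each at 0 to 2.19 CPM. The count of 24 was 13 without the replicate block, 11 with 1 cell per clonotype and 12 in replicates 1 and 2 alone.

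In Treg 1 member rose (Ier2, 0.56) and 3 fell with CD62L high (Fosl2 -1.47, Gadd45b -0.85, Dusp1 -0.51), where 2.51% of genes rose and 2.61% fell. The count of 4 was 1 without the replicate block, 2 without replicate 1, 7 without cycling cells and 10 by DESeq2. The CD62L effect itself was tested for a difference between CD8 and CD4 conventional cells, where 3.26% of genes had a higher and 1.27% a lower effect in CD8. For 4 members it was higher and for none lower. Fosl2, an AP-1 subunit, was at 12, 12, 10.1 and 11.2 in CD62L-high and 21, 32.1, 28.3 and 27.2 in CD62L-low CD4 conventional cells, but at 14.8, 41, 23.5 and 14.6 against 16.5, 19.4, 14.4 and 16.3 in CD8 cells (difference of log2 effects 1.57 ± 0.25, adjusted p = 0.00012). Phlda1 (1.23), Nfkbiz (0.86) and Ier5 (0.69) were the other 3. Without cycling cells Fosl2 (1.48) and Ier5 (0.41) passed, and Phlda1 (1.05, adjusted p = 0.14) and Nfkbiz (0.31, adjusted p = 0.41) did not. Without replicate 4, and in replicates 1 and 2 alone, 2 members were called.

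**Figure D3:**
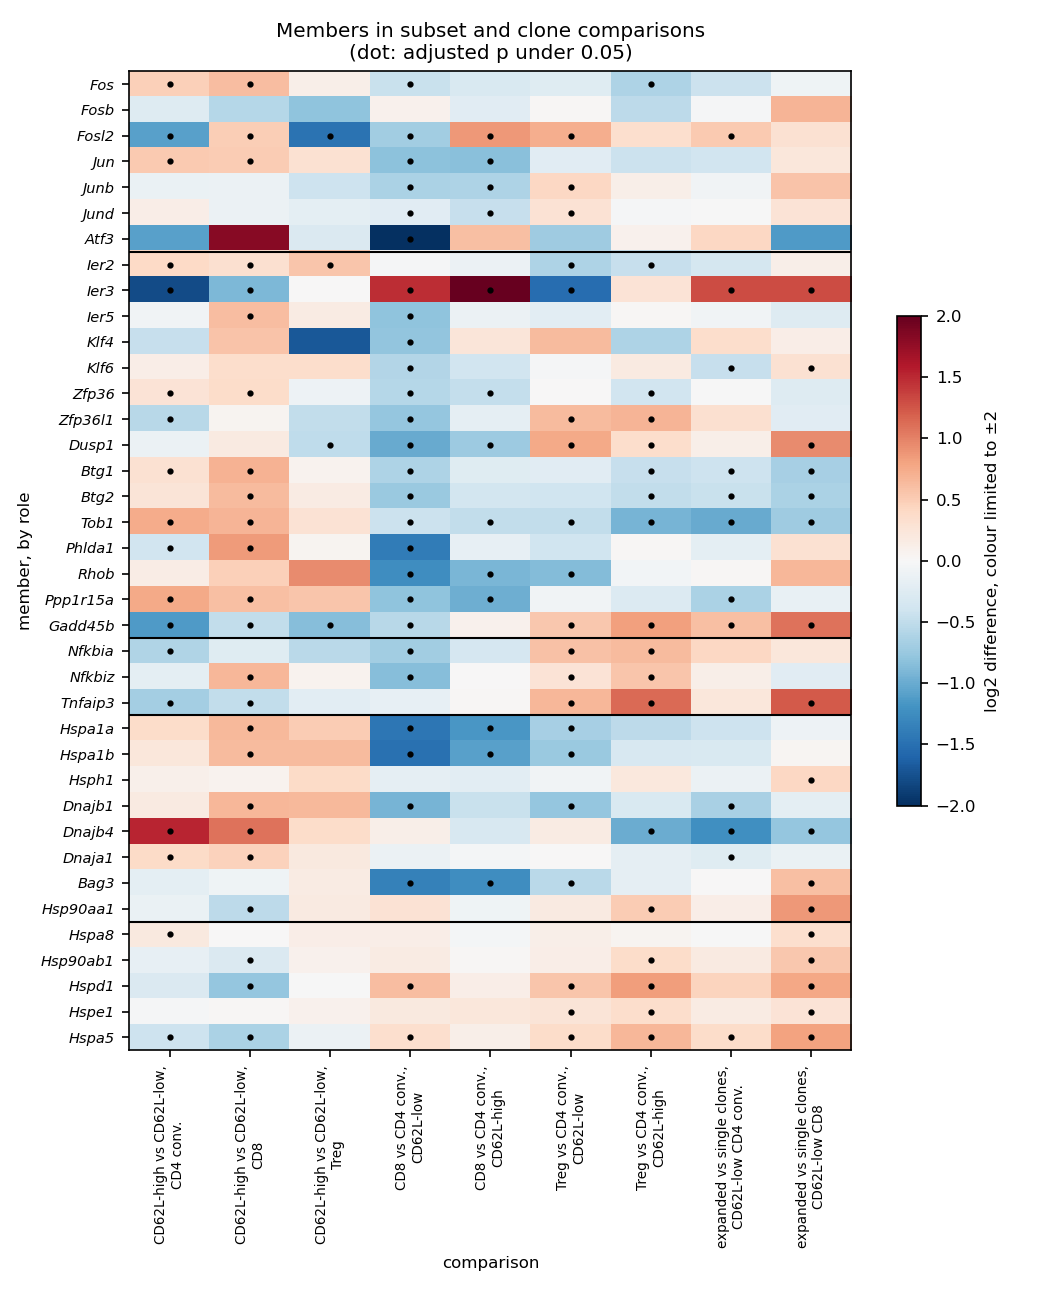
Log2 difference (colour, limited to ±2) of the 38 members (rows, by role, separated by lines) in 9 comparisons of subsets and clone classes (columns), with a dot where the adjusted p was under 0.05. In the column of CD8 against CD4 conventional CD62L-low cells 25 members are lower, and the 3 NF-kB feedback genes are higher in both columns of Treg.

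Clonal expansion, read from paired receptor chains, was compared within CD62L-low cells. In CD4 conventional cells, clones of at least 2 cells had 4 members higher and 8 lower than single cells, where 13.2% of genes were higher and 12.2% lower. Over both directions together, the members' share is near this background. Tob1 fell from 42.4, 58.1, 50.8 and 48.5 to 22.5, 27.3, 22.0 and 32.1 CPM with no overlap (log2 difference -1.01 ± 0.14, adjusted p = 4.2e-06). Dnajb4 (-1.23), Dnajb1 (-0.65), Ppp1r15a (-0.63), Klf6 (-0.46), Btg1 (-0.41), Btg2 (-0.45) and Dnaja1 (-0.24) also fell, while Ier3 (1.30), Gadd45b (0.60), Fosl2 (0.53) and Hspa5 (0.37) rose. Cycling cells made up 33.4% ± 3.8 of the expanded and 13.4% ± 1.88 of the single cells. Without them Klf6 (-0.24), Btg1 (-0.03) and Hspa5 (0.20) were not called. Without the filter on low counts 21 members were called.

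In CD8 cells 13 members were higher and 4 lower in expanded clones, where 21.6% of genes were higher and 18.1% lower. Here too the share over both directions is near the background. All 5 constitutive and organelle chaperones rose, as Hsp90ab1 did from 2357, 2326, 1747 and 2958 to 3470.4, 3281, 3434 and 3853 (log2 difference 0.54 ± 0.09, adjusted p = 0.00022), with no overlap. Of the signalling genes, Ier3 (1.31), Tnfaip3 (1.23), Gadd45b (1.09) and Dusp1 (0.95) rose. Cycling cells were 61.3% ± 9.8 of the expanded against 16.6% ± 3.59 of the single CD8 cells. Without them Hsp90ab1 was at -0.08 (adjusted p = 0.45), Hspd1 at -0.32 (adjusted p = 0.076) and Hspe1 at -0.40 (adjusted p = 0.001), and Btg1, lower at -0.67 with them, was higher at 0.31 (adjusted p = 0.00029). Ier3 (1.27), Tnfaip3 (1.11), Bag3 (1.21) and Hsph1 (0.33) passed both ways, and 7 members were called in all.

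Within a subset, cells with a high immediate early score also had more heat shock transcripts. Cells were ranked by score in 10 bins of total UMIs in each library, and the sums of the highest and lowest of 3 equal groups were compared. The genes of a score are not tested against it. In CD62L-low CD4 conventional cells 8 of 8 inducible heat shock genes were higher and 3 of 5 constitutive or organelle chaperones, where 6.74% of 9754 genes were higher and 2.43% lower. Hspa1a was at 4347, 6518, 3825 and 6168 CPM in the highest group and 458, 725, 357 and 608 in the lowest (log2 difference 3.29 ± 0.29, adjusted p = 2.1e-08). Dnajb1 (2.51), Bag3 (2.13), Hsph1, an HSP110 nucleotide exchange factor (1.74), Dnajb4 (1.57), Hsp90aa1 (1.07) and Dnaja1 (0.52) followed in that order. Hspa8 rose by 0.48, Hspe1 by 0.56 and Hspa5 by 0.63, and Hsp90ab1 (0.29) and Hspd1 (0.30) were not called.

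In the other subsets too most inducible and fewer constitutive members rose. In CD62L-high CD4 conventional cells, where 5.01% of genes were higher and 1.07% lower, 8 of 8 and 3 of 5 rose and Hspa1a differed by 4.37 ± 0.31. In CD62L-low CD8 cells, where 4.61% were higher and 2.16% lower, 7 of 8 and 1 of 5 rose, Hspa1a by 2.52 ± 0.29, and Hsp90aa1 at 0.30 was not called. The count of 8 there was 5 without the replicate block and 5 without replicate 4. In CD62L-high CD8 cells, where 2.25% were higher and 0.328% lower, 8 of 8 and 2 of 5 rose, Hspa1a by 4.18 ± 0.35, and the count of 10 was 6 without replicate 2 and 6 with the cells split into 2 groups. Hspa1a and Hspa1b, whose windows above are the same, rose in all 4 comparisons, and Hspd1 and Hsp90ab1 were called in none. The median of the 8 inducible genes was 1.93, 2.40, 1.25 and 1.80 in the 4 comparisons and that of the 5 others 0.48, 0.49, 0.18 and 0.38, against -0.01 or -0.02 over all genes.

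The heat shock score sorted the immediate early genes by how far they followed it. In CD62L-low CD4 conventional cells 6 of 7 AP-1 and ATF factors, 13 of 15 other immediate early genes, 3 of 3 NF-kB feedback genes and 5 of 5 constitutive or organelle chaperones were higher in the highest of 3 groups, where 6.82% of 9898 genes were higher and 4.02% lower. Jun was at 696, 814, 519 and 756 CPM against 41.5, 51.5, 39.1 and 57.6 (log2 difference 3.86 ± 0.13, adjusted p = 7.3e-13). Atf3 (5.27), Rhob (3.81), Fos (3.67), Fosb (3.02), Ppp1r15a (3.01) and Phlda1 (2.98) followed it most. Junb (1.36), Jund (1.08), Zfp36 (1.13), Gadd45b (1.24) and Tnfaip3 (1.18) followed less, and Nfkbia (0.52) and Ier5 (0.66) least among those called. Btg1 was at 1181, 1163, 1128 and 1239 against 1074, 1013, 1291 and 1061, with overlapping ranges (0.08), and Zfp36l1 (-0.03) and Fosl2 (0.46) were not called either. With the score taken over Hspa1a and Hspa1b alone, Jun was at 3.88 and again called, while Hspd1, at 1.51 before, was at -0.30 (adjusted p = 0.35) and Nfkbia at -0.08 (adjusted p = 0.87).

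In CD62L-low CD8 cells 4 of 7, 10 of 15, 1 of 3 and 5 of 5 were higher, where 6.44% of genes were higher and 4.78% lower. Rhob (3.09 ± 0.38), Jun (2.71 ± 0.14) and Fos (2.49 ± 0.46) had the largest differences among the called members, and Atf3 at 1.94 was not called (adjusted p = 0.13). The lowest groups held few counts of some of these genes, with Rhob at 0, 3.74, 0.664 and 5.18 CPM here and Atf3 at 0.539, 0.485, 0.544 and 0.886 CPM in CD62L-low CD4 conventional cells. Btg1 (0.02), Zfp36l1 (-0.11) and Fosl2 (0.41) were again not called. The count of 20 was 13 without replicate 1. Over Hspa1a and Hspa1b alone Hspd1 was at -0.21 and Hsp90ab1 at -0.06 (adjusted p = 0.66 and 0.84), against 1.31 and 0.81. Differences between the CD4 and CD8 values of these score comparisons were not tested.

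**Figure D4:**
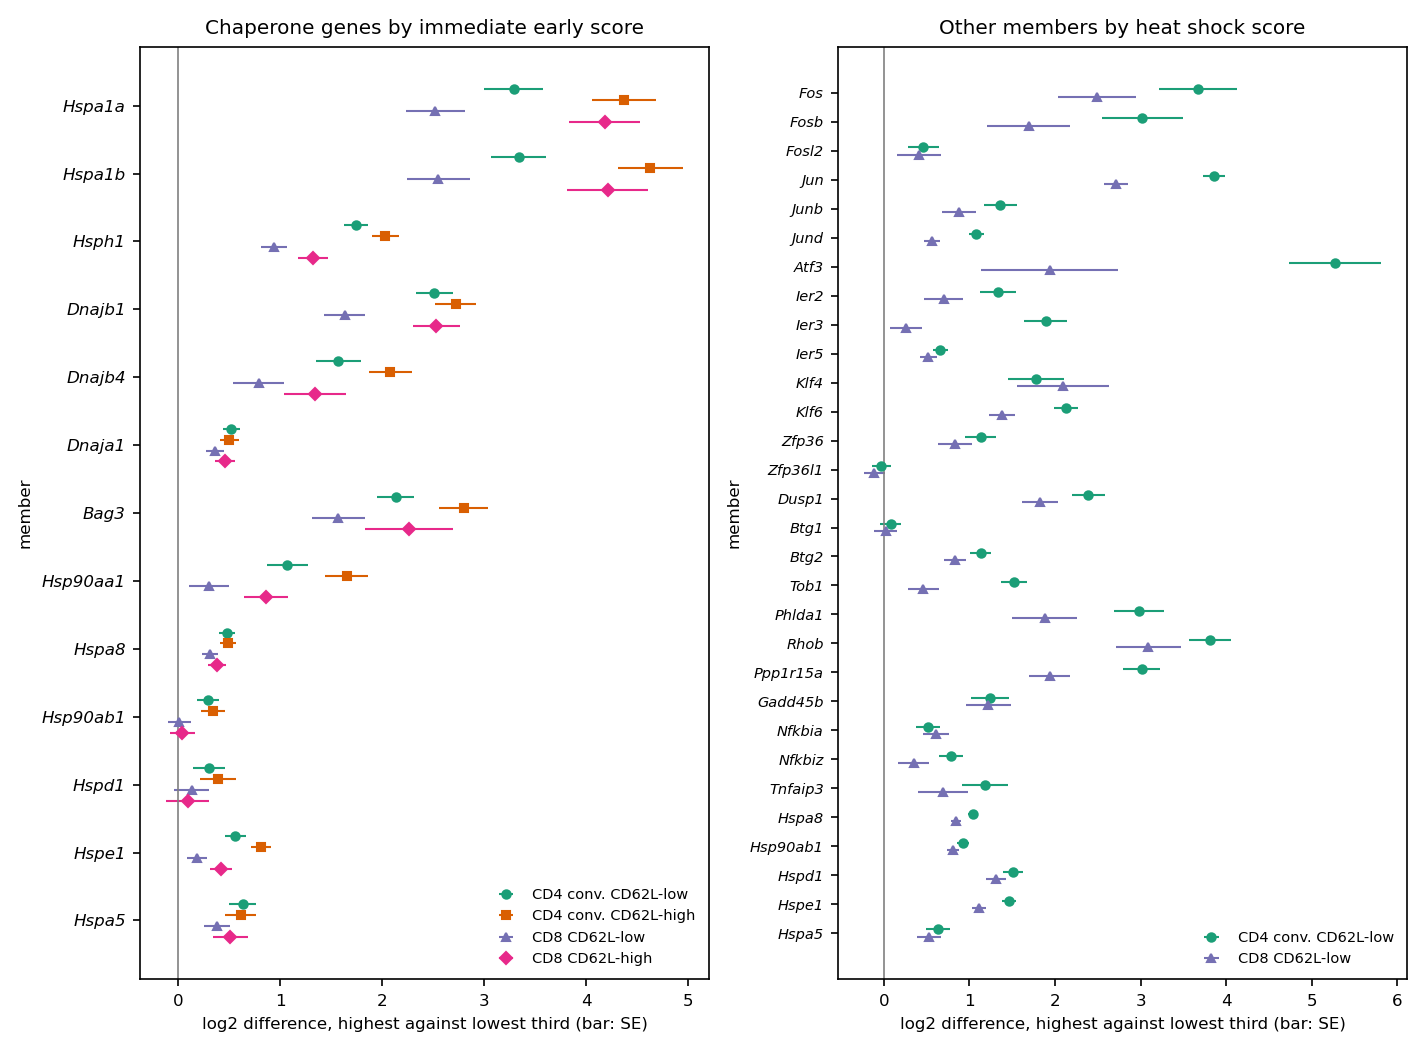
Log2 difference between the highest and lowest of 3 groups of cells (horizontal axis, bars are SE) for 13 chaperone members by immediate early score in 4 subsets (left) and for 30 other members by heat shock score in 2 subsets (right). Hspa1a and Hspa1b lie between 2.52 and 4.63 on the left while Hsp90ab1 and Hspd1 stay under 0.4, and on the right Btg1 and Zfp36l1 lie near 0.

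Genes of activation state followed the immediate early score. Of 18 tested immediate early genes outside the members 18 rose in CD62L-low CD4 conventional cells, with a median of 2.12. Of 14 genes induced by T cell receptor signals, 13 were higher in the highest of 3 groups of CD62L-low CD4 conventional cells, 12 in CD62L-high CD4 conventional, 13 in CD62L-low CD8 and 7 in CD62L-high CD8 cells. Their median was 2.07, 2.45, 1.96 and 2.61, and 8 of the 14 also stand in the immediate early list. Il2ra among them also stands in the list of Treg genes. In CD62L-low CD4 conventional cells Nr4a1, an orphan nuclear receptor that reports receptor signalling, was at 358 against 20.7 CPM (log2 difference 4.12 ± 0.24, adjusted p = 7.8e-12), Nr4a3 rose by 3.32, Egr2 by 2.32 and Cd69, an early activation antigen, by 2.06. Tissue residence genes rose in 8 of 9 cases, with Rgs1 at 717 against 147 (2.29) and Rgs2 by 2.99. The largest rises outside the members were Il10 (5.75), Ccl4 (5.42), Ccl3 (4.64), Nr4a1 and Nr4a2 (3.62). CD4 conventional cells may include Treg without a Foxp3 UMI, and the part of such cells in these rises was not tested. Among the largest falls were Sostdc1 (-1.80), Dapl1 (-1.40), Atp1b1 (-1.29) and Hist1h4n (-1.25). Acinar and ductal markers summed to 573, 196, 159 and 36.9 CPM in the highest and 27.1, 157, 72.8 and 34 in the lowest group. Without barcodes with islet or acinar RNA 923 of 9684 genes were called, against 894 of 9754, with Hspa1a at 3.30, and 36 of the 37 genes outside the members picked for this comparison were called, with Il10 at 5.90, Ccl4 at 5.44 and Nr4a1 at 4.29, and Sostdc1 at -1.68 was not (adjusted p = 0.092).

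Cytokine and exhaustion genes rose in part in CD62L-low cells of both lineages. Effector and cytotoxic genes rose in 6 of 13 cases in CD4 conventional and 9 of 13 in CD8 cells, with Ifng at 203 against 26.6 (2.89 ± 0.28) and 212 against 33.6 (2.60 ± 0.29). Exhaustion genes rose in 3 of 11 and 6 of 11 cases. Ctla4, an inhibitory receptor, rose by 2.56 and 2.65 and Lag3 by 0.88 and 1.31. Ctla4 also stands in the list of Treg genes, and the part of Treg without a Foxp3 UMI was not tested. In CD8 cells Ccl4 (3.35), Nr4a3 (3.01), Ccl3 (2.81), Rgs16 (2.69) and Nr4a2 (2.68) rose most, and Ccr9 (-1.82), Gm43352 (-1.76), Igfbp4 (-1.71) and Lef1 (-1.41) were among those that fell most. Naive and recirculation genes fell in 5 of 14 cases in CD4 conventional and 6 of 14 in CD8 cells, and in none of the CD62L-high subsets. Klf2, a shear-responsive factor that drives S1pr1, was an exception and rose by 1.61 in CD62L-low CD4 conventional, 2.20 in CD62L-high CD4 conventional and 1.99 in CD62L-high CD8 cells. None of 12 cycling genes was called in any of the 4 comparisons. Over these 4 subsets together, cycling cells were 15.8%, 20.9%, 23.7% and 20.1% of the highest groups in replicates 1 to 4. In the lowest groups they were 11.9%, 15.5%, 22.7% and 18.5%, a difference that was not tested.

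Heat shock genes outside the members were among the genes that were higher with the heat shock score. TCR signal genes rose in 5 of 14 cases in CD62L-low CD4 conventional and 3 of 14 in CD62L-low CD8 cells, among them Cd69 (1.56 and 1.11) and Myc (0.90 and 0.53). Exhaustion genes fell in 3 of 11 cases in CD4 conventional cells (Tox -0.43, Pdcd1 -0.36, Lag3 -0.28), with Ctla4 higher (0.98). Heat shock genes outside the members rose in 14 of 18 cases in both lineages (medians 0.70 and 0.65), among them the HSP90 co-chaperone Ahsa1 (1.02 and 0.95) and Cacybp (0.99 and 0.83). Unfolded protein response genes rose in 11 of 14 and 4 of 14 cases. Naive genes fell in 7 of 14 and 9 of 14 cases, Satb1 by 0.68 and 0.89 and Bach2 by 0.90 and 0.90. The gene model Gm20481 rose most in both (4.57 and 4.18), followed in CD4 conventional cells by Hspb1 (4.16), Gadd45g (2.22), Gem (2.13) and Zfand2a (1.91) and in CD8 cells by Bcat1, Shmt1, Srm and Coq10b (1.51 to 1.32).

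**Figure D5:**
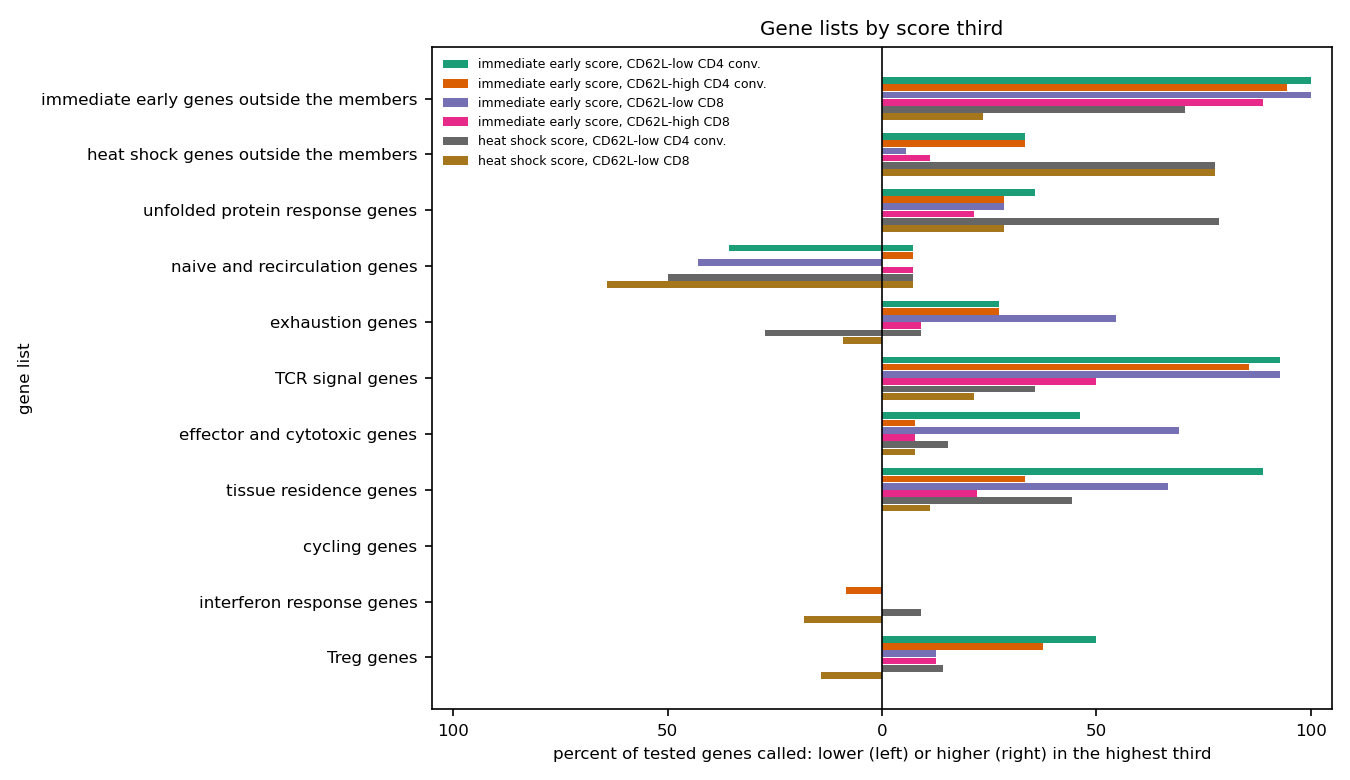
Percent of the tested genes (horizontal axis) of 11 lists (vertical axis) called higher (right) or lower (left) in the highest against the lowest of 3 groups of cells, 1 bar for each of the 6 score comparisons. TCR signal genes reach 13 of 14 for the immediate early score, heat shock genes outside the members 14 of 18 for the heat shock score, and no cycling gene was called.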

How the data were processed

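The authors deposited raw UMI counts per gene and barcode, with antibody counts, written by Cell Ranger 4.0.0 per the file headers, and contig tables of T cell receptor chains. The submitters' processing notes name mm10 and Seurat. The 38 members, the gene lists and the rule for named genes were chosen with earlier results of these data known. Named genes were all members, up to 4 genes of each other list with the smallest adjusted p that passed and went the same way in all libraries, and the 5 largest rises and falls by score at 20 or more CPM, without mitochondrial, ribosomal, receptor or immunoglobulin genes. The values of 1 gene that this rule names are not reported here.

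Barcodes were kept with at least 500 UMIs, 300 genes, 1 Cd3d, Cd3e or Cd3g UMI, and at most 8% mitochondrial UMIs, 1 TRB chain, 1 UMI of the B cell list and 1 of the myeloid list. This left 4887 of 6175, 3282 of 4136, 7033 of 8718 and 6809 of 8394 barcodes, from libraries of 26861163 to 37834174 UMIs. The last 2 limits and the TRB limit stand in for a doublet caller, none of which was run. Clones are cells of a library with the same productive TRA and TRB CDR3 sequences, exactly 1 TRB and 1 or 2 TRA. UMI counts were summed per library and subset (at least 20 cells) and tested with edgeR 4.0.16 (robust quasi-likelihood, TMM, filterByExpr, Benjamini-Hochberg over all genes tested) in R 4.3.3, with the library as block, because the sums of a number come from 1 library. Deviations from the subset mean had a median correlation of 0.18 between sums of the same library and -0.06 between libraries. For each fit, 1 comparison was checked on simulated sums with the same dispersion for all genes and no library effect. The block and the interaction were not checked in this way. DESeq2 1.42.0, RLE scaling and the other alternatives are described at the end. Motifs were searched in RefSeq promoters with Python 3.11.15.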

Additional observations from a re-analysis of the deposited data

Results flagged for a closer look

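Some libraries stood apart from the other 3 of their subset by Dixon's test at its 95% critical value for 4 samples, which marks about 1 in 20 groups by chance. The summed inducible heat shock genes stood at 9614 CPM and Hspa1a, which is part of that sum, at 5215 in CD62L-high Treg of replicate 2, with 34 cells. Junb at 458 and Nfkbia at 202 CPM were low in CD62L-high CD4 conventional cells of replicate 3. Tob1 at 72.5 CPM was high in CD62L-high CD8 cells of replicate 2.

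The effect of CD62L differed between CD8 and CD4 conventional cells, by the interaction term of the edgeR fit, for Fosl2 (difference of log2 effects 1.57), Phlda1 (1.23), Nfkbiz (0.86) and Ier5 (0.69).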

How the results depend on the processing

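Counts of members called kept within 1.5 times under every alternative for CD62L in CD4 conventional cells, for the immediate early score in both CD4 conventional subsets and for the heat shock score in CD62L-low CD4 conventional cells. For the other comparisons they moved as follows, and the cause was not tested except that leaving out samples or cells also removes counts. Same-library sums were paired as a block, and with no replicate block 13 members were called for CD62L in CD8 (24 with it), 1 for CD62L in Treg (4), 5 for CD8 against CD4 with CD62L high (13), 7 and 11 for Treg against CD4 with CD62L low and high (20 and 18) and 5 for the immediate early score in CD62L-low CD8 (8). Without cycling cells the counts were 9 for CD62L in CD8, 7 for CD62L in Treg, 13 and 4 for Treg against CD4 with CD62L low and high and 7 for expanded CD8 clones (17). In replicates 1 and 2 only, a choice made after seeing the data, they were 12 for CD62L in CD8, 17 and 6 for CD8 against CD4 with CD62L low and high and 2 for the interaction. With 1 cell per clonotype 11 members were called for CD62L in CD8, by DESeq2 10 for CD62L in Treg, without the filter 21 for expanded CD4 clones, and with cells split into 2 groups 6 for the immediate early score in CD62L-high CD8.

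Leaving out 1 replicate at a time gave 2 to 5 members for CD62L in Treg, 13 to 17 and 7 to 17 for Treg against CD4 with CD62L low and high, 2 to 5 for the interaction, 5 to 7 and 6 to 10 for the immediate early score in CD62L-low and CD62L-high CD8, and 13 to 21 for the heat shock score in CD8. Of 245 single-gene calls, 14 changed sign without cycling cells, but most of these were then not called. For CD62L in CD8 these were Hspd1 (0.30), Hsp90aa1 (0.15), Hsp90ab1 (0.19), Zfp36 (-0.04) and Btg1 (-0.03). For expanded CD8 clones they were Hspd1 (-0.32), Hspe1 (-0.40), Hspa8 (-0.16), Hsp90ab1 (-0.08), Btg1 (0.31) and Btg2 (0.05). The others were Hspa5 for CD8 against CD4 with CD62L low (-0.18), and for Treg against CD4 Hspe1 with CD62L low (-0.04) and Btg1 with CD62L high (0.09). Only Hspd1 and Hsp90ab1 for CD62L in CD8, Hspe1 and Btg1 for expanded CD8 clones, and Hspa5 were called in the opposite direction. With the heat shock score over Hspa1a and Hspa1b, Hspd1 (-0.30) and Nfkbia (-0.08) changed sign in CD4 and Hspd1 (-0.21) and Hsp90ab1 (-0.06) in CD8 cells. None of these was called in the opposite direction. Small subsets limit depth, above all CD62L-high Treg with 34 to 75 cells a library.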
